A study of Mus musculus with 12 samples.

Results

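The 10 genes described here are Hmox1, Nqo1, Gclm, Gclc, Srxn1, Txnrd1, Slc7a11, Fth1, Tfrc and Slc40a1, chosen by name as targets of the transcription factor NRF2 or as genes of iron handling. They are 10 of the 24340 rows of the expression table, and all 10 were among the 18509 rows above 0 in at least 1 library. The libraries came from left and right retinas of 6 p16-3MR mice aged 12 to 16 weeks, and the expression values were taken as FPKM, fragments per kilobase of transcript scaled to library size, a unit inferred from the values because no source used here states it. In every mouse the intraocular pressure (IOP) of 1 eye was raised to 85 to 90 mm Hg during 60 min, and the contralateral eye was its control. Mice 1, 2 and 5 received daily intraperitoneal ganciclovir (GCV) at 25 mg/kg for 3 days (groups ctrl-GCV and IOP-GCV), mice 3, 4 and 6 were mock treated (groups ctrl and IOP), and retinas were taken on day 3. Each of the 4 groups thus held 3 retinas. All animals, controls included, carried the 3MR transgene, whose viral thymidine kinase turns GCV toxic, and it is read from the regulatory region of p16Ink4a, so that GCV acts on cells in which that region is active.

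NRF2 is a stress sensor of most cells. Its partner KEAP1 marks it for degradation until oxidants or electrophiles modify KEAP1, and NRF2 then pairs with small MAF proteins on antioxidant response elements, while BACH1 holds some of the same elements silent until heme binds it. Its targets make glutathione, reduce thioredoxin and peroxiredoxins, and break down heme into biliverdin, carbon monoxide and iron. Free iron drives lipid peroxidation, so cells store it in ferritin and adjust its uptake and export through iron regulatory proteins, which bind hairpins called iron responsive elements in the messages concerned. In the retina, photoreceptors are rich in oxidizable lipids, and Mueller glia and microglia hold much of the glutathione and iron defence.

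The retinas were bulk tissue, in which a change in the number of cells of a type and a change in RNA per cell cannot be told apart. Rod markers were high in all 12 libraries, with summed levels of 28600 to 53190 FPKM. Summed FPKM of 10 microglia and macrophage markers was 33.7 to 87.0 in control retinas and 242 to 2518 in IOP retinas, with 7 of 10 called higher. All 6 markers of infiltrating leukocytes were called higher, with sums of 2.67 to 17.7 FPKM in controls, where Ly6c2 was listed at 0 in 5 retinas and S100a9 in 2, and of 47.7 to 460 FPKM in IOP retinas. Of 5 Mueller glia markers, 2 were called lower, with sums of 1036 to 1432 FPKM in controls and 331 to 824 FPKM after IOP, but 1 was called with the mouse as a block and 0 without mouse 6. Most of that sum was Glul, at 815 to 1119 FPKM in controls and 184 to 602 FPKM after IOP, while Slc1a3 differed by -0.01 (log2 scale). Of 5 retinal ganglion cell markers, 4 were called lower, but 0 with the mouse as a block, without mouse 5 or without mouse 6. Of 6 lens markers, 3 were called higher, with sums of 2.89 to 5319 FPKM (median 32.6) in controls and 54.6 to 4045 FPKM (median 2629) after IOP, although the highest sum was in the control retina of mouse 1 and none was called without mouse 5 or without mouse 6. The microglial list had 5 markers called without mouse 5 and 5 without mouse 6, and the leukocyte list had 6 and 3. The IOP retina of mouse 5 stood apart with the highest microglial and leukocyte sums and the lowest Mueller glia sum. Lyz2 alone held 2050 FPKM of its microglial sum of 2518 FPKM. The IOP retina of mouse 6 had the fewest estimated fragments, 3970000 against 6860000 to 9020000 in the others, and 14844 genes above 0 against 16044 to 16593. Results are therefore also given without mouse 5 and without mouse 6.

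Averaged over mice with and without GCV, IOP raised Hmox1 and lowered Tfrc, and no other member was called at an adjusted p under 0.05 (limma, Benjamini-Hochberg over 18509 genes). The 2 called members compare with 12.2% of all genes called in that comparison, 6.76% higher and 5.44% lower, and 3 of 10 members had an unadjusted p under 0.05, beside 30.3% of all genes. The 10 members had a median log2 fold change of 0.34, against 0.01 over all genes, with 8 members higher and 2 lower. Txnrd1 and Fth1 were also higher in the IOP eye of every mouse, without being called. Members higher in all 6 mice numbered 3 of 10, beside 10.7% of all genes, and 1 of 10 was lower in all 6, beside 10.1%.

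**Figure D1:**
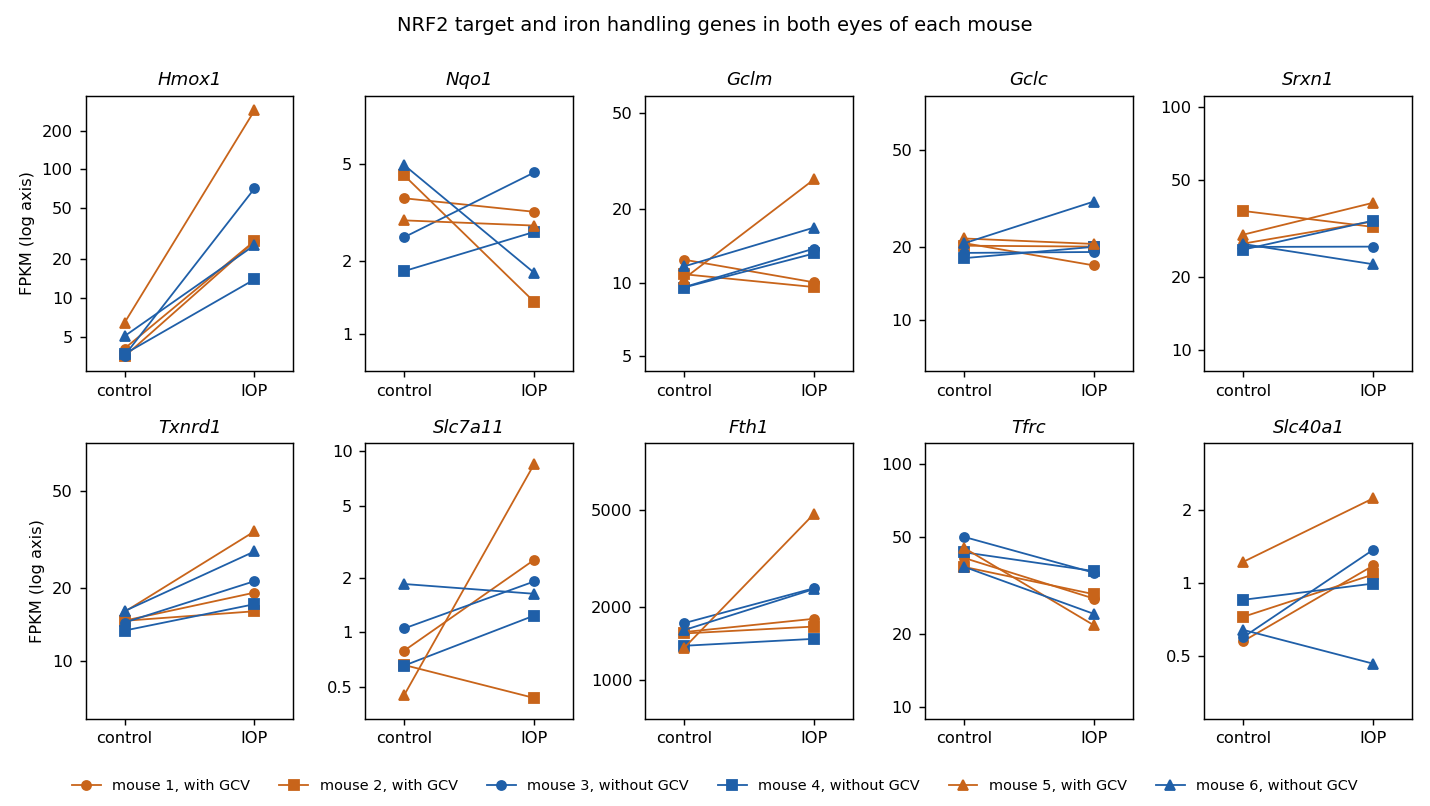
FPKM of the 10 genes in the control and IOP retina of each mouse, on log axes, with a line joining the eyes of 1 mouse (blue, without GCV; orange, with GCV). Every line for Hmox1, Txnrd1 and Fth1 rises and every line for Tfrc falls, while lines for the other members go in both directions.

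Hmox1, heme oxygenase 1, opens the heme ring and frees its iron. The gene lies at chr8:75093621-75100589 on the plus strand (mm10). In mice without GCV its level was 3.56, 3.66 and 5.04 FPKM in the control retinas of mice 3, 4 and 6, and 71.0, 13.9 and 25.7 FPKM in their IOP retinas. In mice with GCV it was 4.03, 3.50 and 6.40 FPKM in the control retinas of mice 1, 2 and 5, and 27.7, 27.5 and 287 FPKM after IOP. All 6 IOP retinas lay above all 6 controls, which held for 5.47% of all genes, and the controls stayed within 1.83-fold of each other while the IOP retinas spread over 20.6-fold. The rise within a mouse was lowest in mouse 4 at 3.81-fold and highest in mouse 5 at 44.9-fold. It was 5.10-fold in mouse 6, 6.87-fold in mouse 1, 7.85-fold in mouse 2 and 19.9-fold in mouse 3.

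The mean log2 fold change of Hmox1 was 3.04 (SE 0.58, 95% interval 1.75 to 4.34, adjusted p = 0.0119). This stood at the 99.7th percentile of all genes. Without mouse 5 it was 2.59 (adjusted p = 0.0111), and without mouse 6 it was 3.16 (adjusted p = 0.0540), so that the call was lost without mouse 6. Hmox1 remained called in all 12 fits that left out 1 library. By rank among all genes, Hmox1 moved between place 180, in the IOP retina of mouse 5, and place 10217.

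Hmox1 and the summed markers of microglia and macrophages were both highest in the IOP retina of mouse 5, at 287 and 2518 FPKM. Lyz2 made up 2050 FPKM of that sum. Aif1, Cx3cr1, Csf1r, Itgam and Mrc1 were also highest there. By contrast, C1qa was highest in mouse 1, Cd68 in mouse 6 and Tmem119 in mouse 4. P2ry12 was 2.20 FPKM in that retina, below its control at 2.61 FPKM. The next highest Hmox1 (mouse 3, 71.0 FPKM) stood beside a sum of 891 FPKM. The next highest sum (mouse 6, 1051 FPKM) stood beside 25.7 FPKM. Red cell markers, the messages of hemoglobin chains and of the heme synthesis gene Alas2, summed to 56.2 to 193 FPKM in controls and 25.6 to 524 FPKM after IOP, with 0 of 6 called and Alas2 listed at 0 in the IOP retina of mouse 6. That sum was 524 FPKM in mouse 3 and 50.4 FPKM in mouse 5, the 2 IOP retinas with the most Hmox1. The part of these cell types in the rise of Hmox1 was not tested.

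**Figure D2:**
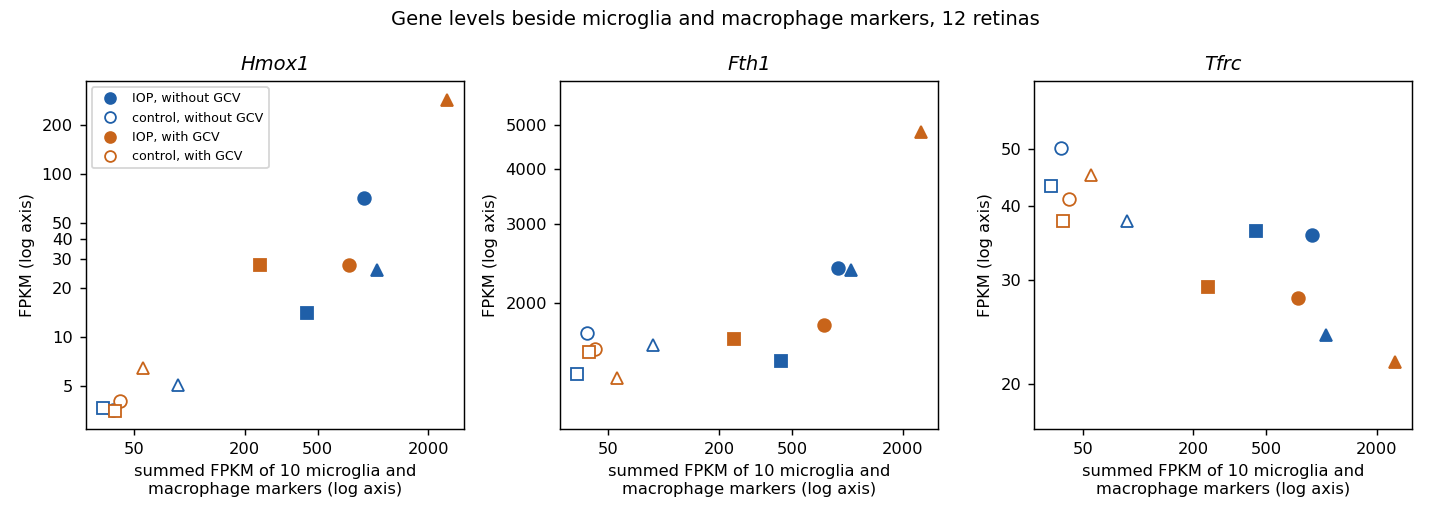
Level of Hmox1, Fth1 and Tfrc (FPKM, log axis) against the summed FPKM of 10 microglia and macrophage markers (log axis) in 12 retinas; filled symbols are IOP eyes, open symbols controls, circles mice 1 and 3, squares mice 2 and 4, and triangles mice 5 and 6. Controls lie at sums of 33.7 to 87.0 and IOP retinas at 242 to 2518, with the IOP retina of mouse 5 at the far right in all 3 panels.

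Tfrc, the transferrin receptor that brings transferrin-bound iron into cells, went the other way. It lies at chr16:32608920-32632794 on the plus strand. Without GCV it was at 50.2, 43.4 and 37.8 FPKM in the control retinas of mice 3, 4 and 6 and at 35.7, 36.3 and 24.2 FPKM after IOP. With GCV it was at 41.1, 37.8 and 45.3 FPKM in the controls of mice 1, 2 and 5 and at 28.0, 29.2 and 21.8 FPKM after IOP. The lowest control, 37.77 FPKM, stood just above the highest IOP retina, 36.30 FPKM, so the eyes did not overlap, as for 2.44% of all genes in this direction. The ratio of IOP to control eye ran from 0.481 in mouse 5 to 0.837 in mouse 4.

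The mean log2 fold change of Tfrc was -0.55 (SE 0.12, 95% interval -0.82 to -0.27, adjusted p = 0.0230). Without mouse 5 it was -0.45 (adjusted p = 0.122), and without mouse 6 it was -0.50 (adjusted p = 0.0299). Among fits that left out 1 library it was called in 7 of 12. It was lost, with adjusted p of 0.0523 to 0.0636, when the control retina of mouse 1, 3, 4 or 5 or the IOP retina of mouse 5 was left out.

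The iron responsive elements of Tfrc and of the other iron genes are shown because they are the sequences through which iron regulatory proteins act on these messages. Hairpins of 27 bases with a CAGTGN loop (N being A, C or T) were sought along whole GENCODE coding transcripts with a RefSeq entry. The assembly was GRCm38, which mm10 names. Anywhere in such a transcript, coding sequence included, 22 of 20512 coding genes (0.107%) held one. Among the 10 members, 3 did: Tfrc after its coding sequence, and Fth1 and Slc40a1 before theirs. Bound there, the regulatory proteins keep Tfrc message from being degraded when iron is scarce, and keep Fth1 and Slc40a1 from being translated. The loop is in capitals and the stem in lower case, in the DNA letters of the genome.
Tfrc, chr16:32631220-32631246, plus strand: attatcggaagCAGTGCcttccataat
Tfrc, chr16:32631599-32631625, plus strand: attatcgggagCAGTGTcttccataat
Tfrc, chr16:32631664-32631690, plus strand: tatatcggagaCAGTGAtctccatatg
Tfrc, chr16:32631711-32631737, plus strand: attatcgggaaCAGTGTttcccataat
Fth1, chr19:9982733-9982759, plus strand: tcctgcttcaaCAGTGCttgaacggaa
Slc40a1, chr1:45925466-45925492, minus strand: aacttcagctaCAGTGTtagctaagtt
Ftl1, chr7:45459780-45459806, minus strand: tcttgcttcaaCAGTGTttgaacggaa

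These hairpins are a description of the messages, and no iron or protein level was measured. Of the genes printed, Tfrc was called lower, Fth1 and Slc40a1 did not pass the test, and Ftl1, the ferritin light chain, was called higher (adjusted p = 0.0471) but not with the mouse as a block, without mouse 5 or without mouse 6.

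Fth1, the ferritin heavy chain, oxidizes iron for storage in the ferritin shell. It lies at chr19:9980598-9985098 and was among the most abundant messages of the retina, between place 4 and place 19 by FPKM in the 12 libraries. Control retinas held 1718, 1387 and 1608 FPKM in mice 3, 4 and 6 and 1579, 1558 and 1358 FPKM in mice 1, 2 and 5. After IOP the level was 2391, 1481 and 2371 FPKM without GCV and 1791, 1664 and 4830 FPKM with GCV. Each IOP retina was above its own fellow eye, but mice 2 and 4 differed by only 1.07-fold and the eyes overlapped across mice. The IOP retina of mouse 5, at 3.56 times its control, was far from the rest, whose ratios ran up to 1.47. The mean log2 fold change was 0.54 (SE 0.32, 95% interval -0.17 to 1.25, limma adjusted p = 0.288), and without mouse 5 it was 0.26 (adjusted p = 0.615). Ferritin genes have near-identical processed copies elsewhere in the genome, and how the counting shared such reads is not given in the sources used here, so the levels of Fth1 and Ftl1 are uncertain to that extent.

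Slc40a1 (chr1:45908068-45926523), ferroportin, is the only known exporter of iron from vertebrate cells. Its level was low, at 0.466 to 2.23 FPKM, or an estimated 5.92 to 62.1 fragments per library. It was higher in the IOP retina of 5 of 6 mice, by 1.17-fold to 2.29-fold, and lower in mouse 6 at 0.726 times its control, the retina with the estimated 5.92 fragments. The mean log2 fold change was 0.30 (SE 0.16, 95% interval -0.05 to 0.64, adjusted p = 0.231).

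Txnrd1 (chr10:82833951-82897712), thioredoxin reductase 1, uses NADPH to reduce thioredoxin and is a selenoprotein under NRF2 control. Control retinas lay close together, at 14.4, 13.4 and 16.1 FPKM without GCV and 14.7, 14.7 and 16.0 FPKM with GCV. IOP retinas held 21.3, 17.2 and 28.3 FPKM in mice 3, 4 and 6 and 19.1, 16.0 and 34.2 FPKM in mice 1, 2 and 5. All 6 mice were higher after IOP, by 1.09-fold in mouse 2 to 2.14-fold in mouse 5, and the eyes overlapped only at the IOP retina of mouse 2, which at 16.04 FPKM was just under the highest control, at 16.07 FPKM. The mean log2 fold change was 0.53 (SE 0.18, 95% interval 0.14 to 0.92), with an unadjusted p of 0.0123 and an adjusted p of 0.0711 in limma. It was called without the IOP retina of mouse 4 (adjusted p = 0.0352) or of mouse 2 (adjusted p = 0.0427), and was 0.40 without mouse 5 (adjusted p = 0.164). Srxn1 (chr2:152105516-152111376), sulfiredoxin 1, which restores over-oxidized peroxiredoxins, ranged from 25.9 to 37.3 FPKM in controls and from 22.5 to 40.3 FPKM after IOP. Its mean log2 fold change was 0.10 (SE 0.11, 95% interval -0.14 to 0.35, adjusted p = 0.570), with 4 mice higher and 2 lower.

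Gclc (chr9:77754535-77794485) and Gclm (chr3:122245557-122270732), the catalytic and modifier subunits of glutamate-cysteine ligase, carry out the rate-limiting step of glutathione synthesis. Gclm was 9.59, 9.56 and 11.7 FPKM in the control retinas of mice 3, 4 and 6 and 13.8, 13.2 and 16.8 FPKM in their IOP retinas. With GCV it was 12.4, 10.8 and 10.4 FPKM in the controls of mice 1, 2 and 5 and 10.0, 9.60 and 26.6 FPKM after IOP. The 3 mice without GCV were thus 1.38-fold to 1.44-fold higher after IOP, whereas mice 1 and 2 were lower after IOP and mouse 5 was 2.56-fold higher. The interaction was -0.19 (SE 0.43, adjusted p = 0.997), within the spread between mice. Over all 6 mice the log2 fold change of Gclm was 0.37 (SE 0.22, 95% interval -0.11 to 0.85, adjusted p = 0.281), and without mouse 5 it was 0.12 (adjusted p = 0.532). An exon of Gclm overlaps the antisense transcript Gm17494 and the pseudogene Gm6061, so some of its reads may belong to them.

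Gclc differed on average by 0.06 on the log2 scale (SE 0.11, 95% interval -0.20 to 0.31, adjusted p = 0.776). It was at 18.9, 18.0 and 20.7 FPKM in controls and 19.1, 20.0 and 30.7 FPKM after IOP without GCV, and at 20.7, 20.2 and 21.7 FPKM in controls and 16.8, 20.0 and 20.6 FPKM after IOP with GCV. The 3 mice without GCV were each at or above their control, by 1.01-fold to 1.49-fold, and the 3 with GCV each below, at 0.809 to 0.991 of it. The difference between these effects was -0.36 (SE 0.23, limma unadjusted p = 0.144, adjusted p = 0.997), so it did not exceed the spread between mice.

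Slc7a11 (chr3:49892526-50443614), the cystine transporter xCT that feeds glutathione synthesis, was at 0.450 to 1.85 FPKM in controls and 0.433 to 8.49 FPKM after IOP. The highest value was again the IOP retina of mouse 5, at 18.9 times its control of 0.450 FPKM, and over the libraries the estimate was 26.9 to 669 fragments. It was higher in 4 mice and lower in 2, with a mean log2 fold change of 0.72 (SE 0.37, 95% interval -0.11 to 1.55, adjusted p = 0.230). Without mouse 5 it was 0.33 (adjusted p = 0.532), and without the IOP retina of mouse 2, which held the lowest value, it was called at 1.05 (adjusted p = 0.0354). Nqo1 (chr8:107388225-107403206), the quinone reductase often used as a readout of NRF2, was at 1.82 to 4.96 FPKM in controls and 1.36 to 4.63 FPKM after IOP. It was lower after IOP in 4 of 6 mice, with a mean log2 fold change of -0.24 (SE 0.25, 95% interval -0.79 to 0.30, adjusted p = 0.546), at an estimated 9.83 to 59.5 fragments per library.

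**Figure D3:**
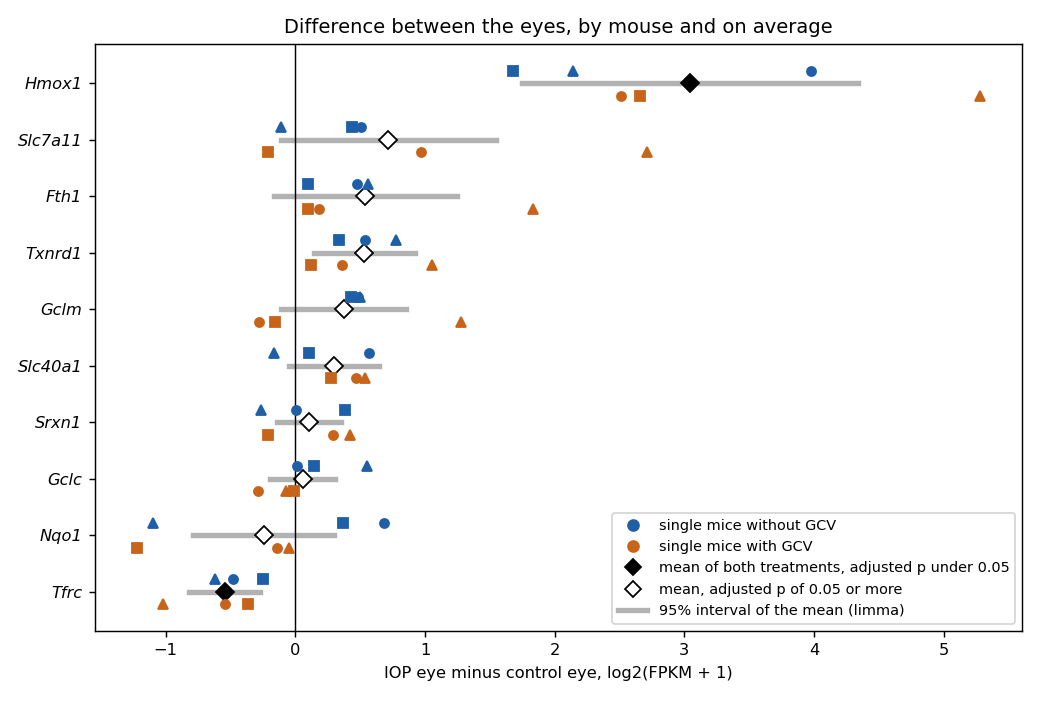
Difference between the IOP and the control retina on the log2(FPKM + 1) scale for each mouse (blue, without GCV; orange, with GCV; symbols by mouse as in the plot of levels) and its mean with the 95% interval (diamond and grey bar; filled diamond, adjusted p under 0.05). Hmox1 at 3.04 and Tfrc at -0.55 are the filled diamonds, and the orange triangle of mouse 5 is the farthest point to the right for 6 of the 8 members that were higher on average.

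NRF2 binds antioxidant response elements, so their core, TGACNNNGC on either strand, was sought in RefSeq promoters (GRCm38.p6, 250 bases before to 50 bases after the start site). Promoter sequence was at hand for 7 of the 10 members, not for Hmox1, Gclc and Slc40a1. The core was present in 3 of the 7, and in 12.4% of all 32851 promoters, or 14.0% of genes. The matches are printed with the core in capitals. Of the 5 further NRF2 targets called for IOP, Prdx1 (higher) and G6pdx (lower) held a match, printed after those of the members, whereas Akr1b8 and Osgin1 (higher) and Tkt (lower) held none.
Gclm, chr3:122245413-122245441, minus strand: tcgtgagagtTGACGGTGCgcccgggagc
Srxn1, chr2:152105542-152105570, minus strand: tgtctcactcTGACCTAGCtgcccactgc
Txnrd1, chr10:82859104-82859132, minus strand: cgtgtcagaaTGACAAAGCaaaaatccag
Prdx1, chr4:116685456-116685484, minus strand: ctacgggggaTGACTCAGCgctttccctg
G6pdx, chrX:74428919-74428947, plus strand: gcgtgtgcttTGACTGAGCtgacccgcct

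A match is only a description of these letters, since many response elements lie farther from the start site. None of the 3 members with a match was called, and Tfrc, which fell, had no match in its window. Among the other lists the core was found in 4 of 9 NRF2 regulators, 6 of 16 further NRF2 targets, 6 of 19 further iron and heme genes and 1 of 10 genes of cystine, glutathione and ferroptosis with a promoter.

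With the treatments taken apart, no member was called, either without GCV (0 of 10, beside 1.65% of all genes) or with GCV (0 of 10, beside 1.8%); genes called higher made up 1.42% without GCV. At an unadjusted p under 0.05 limma had 2 of 10 members in each, Hmox1 and Tfrc, beside 18.9% of all genes without GCV and 19.2% with GCV. Hmox1 was 2.60 higher on the log2 scale without GCV (SE 0.83, adjusted p = 0.168) and was 3.49 higher with GCV (SE 0.83, adjusted p = 0.0658). Tfrc differed by -0.45 (SE 0.17, adjusted p = 0.223) and -0.64 (SE 0.17, adjusted p = 0.0977). With mouse 5 left out, Hmox1 was called without GCV at the same fold change (adjusted p = 0.0359). The value of Hmox1 with GCV rested on differences of 2.51, 2.66 and 5.28 in mice 1, 2 and 5.

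Whether GCV altered the response to IOP was asked with the interaction term. No member was called, and 0% of all genes were, with 0 of 10 members and 358 of 18509 genes (1.93%) at an unadjusted p under 0.05 (limma). The interaction was 0.88 for Hmox1 (SE 1.17, 95% interval -1.71 to 3.47), so that a GCV effect of several-fold in either direction lay within it. Without mouse 5 the Hmox1 interaction was -0.02. For Tfrc it was -0.19 (SE 0.25, 95% interval -0.74 to 0.36) and for Txnrd1 -0.04 (SE 0.35, 95% interval -0.82 to 0.74).

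Between mice, IOP-GCV against IOP gave 0 members and 0% of genes called, with 1 member and 774 genes (4.18%) at an unadjusted p under 0.05. That member was Srxn1, at 33.8, 32.1 and 40.3 FPKM in IOP-GCV and 26.6, 34.1 and 22.5 FPKM in IOP, with a log2 difference of 0.35 (SE 0.16, limma unadjusted p = 0.0481, adjusted p = 0.819). In uninjured eyes, ctrl-GCV against ctrl gave 0 members and 0% of genes called, with 0 members and 295 genes (1.59%) at an unadjusted p under 0.05. Hmox1 there differed by 0.13 (95% interval -1.70 to 1.96) and Fth1 by -0.07 (95% interval -1.06 to 0.93). These comparisons share their groups with the IOP comparisons above.

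Of the 10 members, 7 had their highest value of the 12 libraries in the IOP retina of mouse 5 and 1, Tfrc, had its lowest there. The exceptions were Nqo1 and Gclc. The share of all genes with an extreme in that retina was not counted. These counts therefore do not set the members apart from other genes.

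Of 9 regulators of the pathway, 1 was called higher and 1 lower, beside 6.76% and 5.44% of all genes, with a median log2 fold change of 0.26. Nfe2l2, which encodes NRF2, was 17.1 to 21.2 FPKM in controls and 18.8 to 43.9 FPKM after IOP, higher in 6 of 6 mice, with a log2 fold change of 0.52 (SE 0.17, adjusted p = 0.0791). Keap1, the repressor of NRF2, differed by 0.11 (SE 0.08, adjusted p = 0.425) and Bach1 by 0.26 (SE 0.15, adjusted p = 0.283). Mafk, a small MAF partner, rose from 1.95 to 2.94 FPKM in controls to 3.50 to 5.23 FPKM after IOP (log2 fold change 0.58, adjusted p = 0.0197, and 0.0535 with the mouse as a block). Nfe2l1, a relative of NRF2 that drives proteasome genes, fell by 0.44 (log2 scale, limma adjusted p = 0.0219, or 0.0539 with the block). Without mouse 5 or without mouse 6 neither was called. The fold changes in those fits were 0.48 and 0.59 for Mafk and -0.41 and -0.39 for Nfe2l1. Over 12 single omissions Mafk was called in 9 and Nfe2l1 in 6. The most abundant regulators beside Nfe2l1 were Cul3, the ligase scaffold that KEAP1 uses (0.31, adjusted p = 0.174), and the autophagy receptor Sqstm1 (-0.33, adjusted p = 0.168).

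Of 19 further NRF2 targets, 3 were called higher and 2 lower, beside 6.76% and 5.44% of all genes, with 15 of 19 above 0 and a median of 0.30. Akr1b8, an aldo-keto reductase, was 1.83 to 3.84 FPKM in controls and 5.32, 8.18 and 11.3 FPKM after IOP in mice 4, 3 and 6, and 5.30, 6.88 and 14.1 FPKM in mice 1, 2 and 5. All its IOP retinas lay above all controls, and it rose by 1.43 on the log2 scale (SE 0.25, adjusted p = 0.00826), a call kept without mouse 5 (0.0113) and without mouse 6 (0.0346). Prdx1, a peroxiredoxin, rose by 0.58 (adjusted p = 0.0415, 0.117 without mouse 6), and Osgin1, an oxidative stress growth inhibitor, by 0.87 (adjusted p = 0.0419, 0.138 without mouse 5). G6pdx, the entry enzyme of the pentose phosphate pathway, fell by 0.25 (adjusted p = 0.0268) and Tkt, transketolase, by 0.51 (adjusted p = 0.0272), and both calls were lost with the block (0.0727 and 0.0520). The list also holds Pgd and Taldo1 of that pathway, which differed by 0.31 (adjusted p = 0.162) and 0.13 (adjusted p = 0.663) and were not called. With the block the list had 3 called higher and 0 lower, beside 7.3% of all genes called in that fit, without mouse 5 it had 2 and 0, beside 4.03%, and without mouse 6 it had 1 and 0, beside 4.85%. Over 12 single omissions Akr1b8 was called in 12, G6pdx in 7, Prdx1 and Tkt in 4 and Osgin1 in 3.

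Of 25 further iron and heme genes measured, 5 were called higher and 0 lower, beside 6.76% and 5.44% of all genes, while the median of the list was -0.02 and 12 of 25 were above 0. After quantile normalization the list had 4 higher and 2 lower, with 16% of all genes called, and it had 3 and 0 both without mouse 5 (4.03% of all genes called) and without mouse 6 (4.85%). Slc25a37, mitoferrin 1, which carries iron into mitochondria, was 6.37, 7.80 and 8.80 FPKM in the controls of mice 3, 4 and 6 and 31.9, 22.5 and 33.0 FPKM after IOP, and 6.61, 6.72 and 6.34 FPKM in the controls of mice 1, 2 and 5 and 16.3, 23.5 and 29.9 FPKM after IOP. It was higher after IOP in all 6 mice, by 2.47-fold in mouse 1 to 5.01-fold in mouse 3, with a mean of 1.72 on the log2 scale (SE 0.15, adjusted p = 0.000317). Lcn2, lipocalin 2, which binds iron-carrying siderophores, was 9.58 to 23.8 FPKM in controls and 90.2 to 646 FPKM after IOP (3.63, SE 0.42, adjusted p = 0.000959). Cp, ceruloplasmin, the ferroxidase that works with ferroportin, was 39.5 to 55.3 FPKM in controls and 84.7 to 228 FPKM after IOP (1.49, SE 0.24, adjusted p = 0.00550).

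These 3 were called in all 12 fits that left out 1 library, with the block, without mouse 5 and without mouse 6. Slc25a37 and Lcn2 were also the 2 genes of the list called without GCV and the 2 called with GCV. The ferritin light chain Ftl1 was 175 to 239 FPKM in controls and 238 to 1351 FPKM after IOP, and Blvrb, a biliverdin reductase, was 8.01 to 12.1 and 11.8 to 48.1 FPKM. Both were highest in the IOP retina of mouse 5, and neither was called without mouse 5 (log2 fold change 0.90 and 0.79) or without mouse 6 (adjusted p = 0.0801 and 0.152), nor Ftl1 with the block (0.0805). Over 12 single omissions Ftl1 was called in 3 and Blvrb in 2. The abundant RNA-binding iron chaperone Pcbp2 differed by -0.27 (adjusted p = 0.159) and the iron sensor Fbxl5 by 0.27 (SE 0.12), neither of them called.

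**Figure D4:**
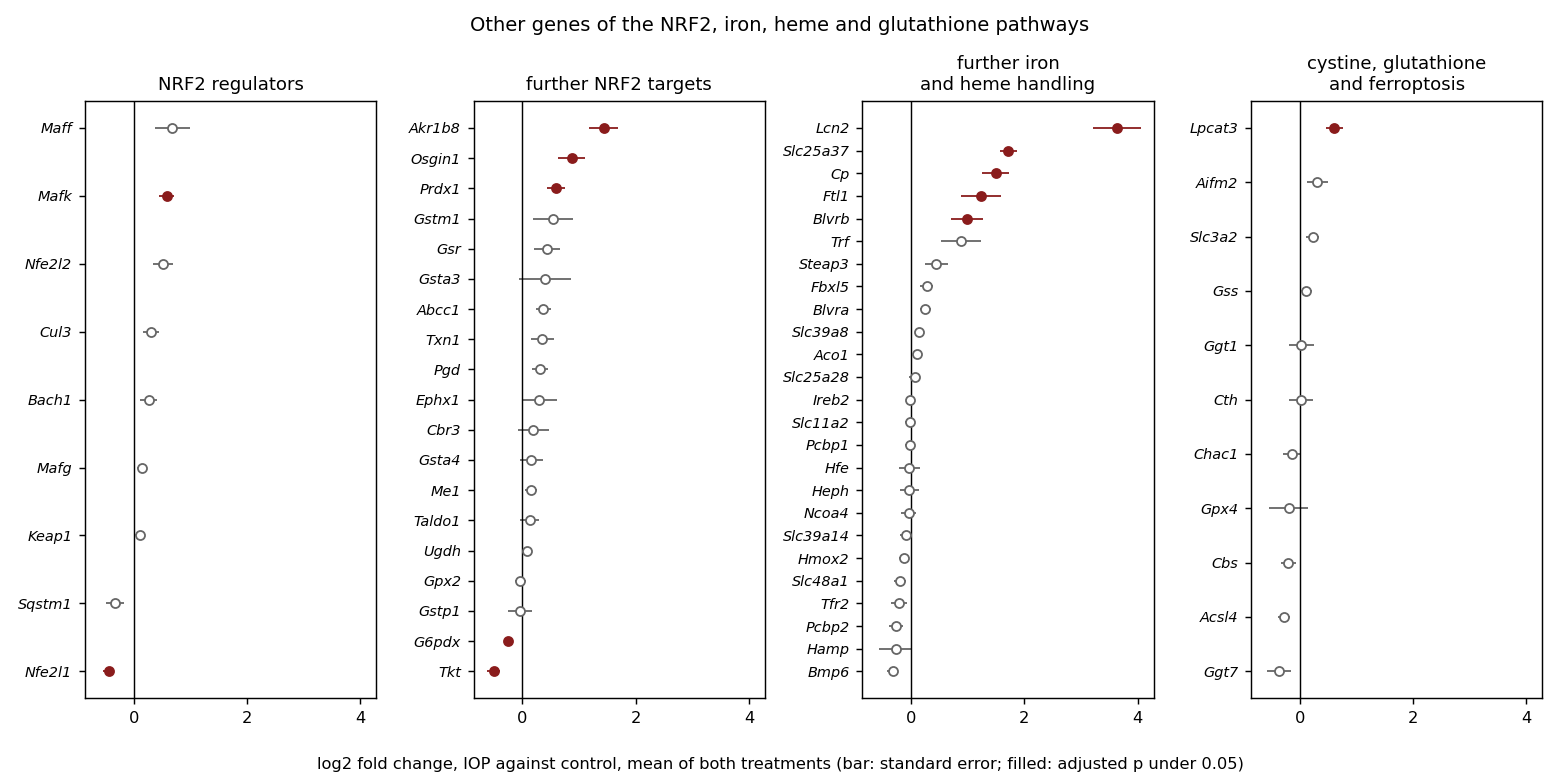
Mean log2 fold change, IOP against control over both treatments, with its standard error, for genes of 4 further lists (filled red, adjusted p under 0.05). Lcn2 at 3.63, Slc25a37 at 1.72 and Cp at 1.49 lie farthest to the right in the iron and heme list, and most other genes lie near 0.

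Of 11 genes of cystine, glutathione and ferroptosis, 1 was called higher and 0 lower, beside the same shares of all genes, with a median of 0.02. Lpcat3, which places polyunsaturated chains in phospholipids, rose by 0.61 (log2 scale, limma adjusted p = 0.0304, or 0.0725 with the block), and was called in 6 of 12 single omissions but neither without mouse 5 (0.48, adjusted p = 0.109) nor without mouse 6 (0.70, adjusted p = 0.0528). Gpx4, the peroxidase that removes lipid hydroperoxides, was 71.0 to 128 FPKM in controls and 21.4 to 134 FPKM after IOP (-0.20, adjusted p = 0.741), with the lowest value in mouse 6. The direction of Gpx4 turned without mouse 6 (0.14), and it was lower after IOP in the 3 mice without GCV and higher in the 3 with GCV (interaction 1.44, SE 0.69, adjusted p = 0.997, and 0.75 without mouse 6). Slc3a2, the partner chain of Slc7a11, differed by 0.23 (adjusted p = 0.200) and Ggt7 by -0.37 (adjusted p = 0.274), or by -0.15 without mouse 6.

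By Pearson correlation of log2(FPKM + 1) over the 12 libraries, among 12909 genes averaging 1 FPKM or more, the genes most like Hmox1 were D8Ertd82e, Psme2b and Tmsb4x, each at r = 0.98. Those most like Tfrc were Kif4 at 0.92 and Dleu7 and Zfp763 at 0.90. The points are 2 eyes of each mouse and fall into control and IOP retinas, so these values describe how the libraries order and are not evidence of shared control.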

How the data were processed

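The authors deposited 1 table for 12 libraries (stranded mRNA kit, paired reads). The labels' processing notes name mm10, TopHat2, Bowtie2, Cufflinks and Cuffdiff, and the methods name HOMER counting on RefSeq exons. The deposited values were taken as FPKM, a unit that no source used here states and that their steps imply. The steps of low values in 1883 genes with 1 transcript gave 3970000 to 9020000 fragments per library, so depths are approximate. Values were analysed as log2(FPKM + 1), which understates changes of low genes, with limma 3.58.1 in R 4.3.3: 4 group means, variance trend, Benjamini-Hochberg adjustment over 18509 genes, calls at 0.05. Each mouse gave both eyes, so the mouse was a block in an alternative. Deviations of the eyes of a mouse from their group means correlated at -0.12, 0.13, 0.21, 0.39, 0.17 and 0.10 in mice 1 to 6 (12910 genes). The paper's methods state no test for these libraries, although the processing notes name Cuffdiff. The mice are separate animals.

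Members and lists were chosen with earlier results of these data known. Named genes are the 10 members, Nfe2l2, Keap1, Bach1, up to 3 called genes with the smallest adjusted p and the 3 most abundant of each further list, and the 3 genes most correlated with each called member. Blvrb, Prdx1, Osgin1 and Pgd were named beyond that, after their values were seen. Coordinates of genes and hairpins come from GENCODE on GRCm38. Tables and plots were made with pandas 2.3.3, numpy 2.4.6 and matplotlib 3.10.9 under Python 3.11.15.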

Additional observations from a re-analysis of the deposited data

Results flagged for a closer look

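For Fth1, mouse 5 stood apart from the other 5 mice in the difference between its eyes: 1.83 on the log2 scale, a ratio of 3.56. Of 10 members tested in this way 1 stood apart, and chance marks about 1 group in 20. Gclc was higher in the IOP eye of the 3 mice without GCV and lower in that of the 3 mice with GCV, with a difference of -0.36 between the mean effects, which was not larger than the spread by the interaction term (adjusted p = 0.997, limma). The ratio was only 1.01 in mouse 3 and 0.991 in mouse 2. Counting errors estimated from the fragments were 4.46% to 4.73% in those libraries, so these 2 directions are uncertain. The share of all genes split in this way was not counted.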

How the results depend on the processing

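The average IOP effect gave 2 called members with a pseudocount of 0.1 (12.6% of all genes called), with a filter of 1 FPKM in 3 libraries (19.7%), after median-ratio scaling (12.5%), after quantile normalization (16%) and with the mouse as a replicate block (7.3%). It gave 1 without mouse 5 (Tfrc lost, 4.03% of all genes called) and 1 without mouse 6 (Hmox1 lost, adjusted p = 0.0540, 4.85% called), omissions chosen after seeing the data, and 1 to 4 when each library was left out. The block changed no member's call and took the calls over all genes from 2258 to 1351. With GCV, 1 member, Hmox1, was called with a pseudocount of 0.1 (adjusted p = 0.0386) and 1 with the filter (0.0391), and 0 to 2 with single libraries left out. Without GCV 1 was called when mouse 5 was left out. The cause was not tested.

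Several values that were not called changed sign. In the average effect Nqo1 was 0.026 and Gclc -0.022 without mouse 6, and over single omissions Gclc ran from -0.049 to 0.12. Without GCV, Nqo1 was 0.52 without mouse 6, and over single omissions Nqo1 ran from -0.29 to 0.29 and Srxn1 from -0.11 to 0.18. With GCV, Gclm was -0.22 without mouse 5 and ran from -0.17 to 0.52. In the interaction, Hmox1 was -0.016 and Fth1 -0.24 without mouse 5, and Srxn1 was -0.026 and Txnrd1 0.076 without mouse 6. Over single omissions the interaction ran from -0.23 to 1.5 for Hmox1, -0.64 to 0.049 for Gclm, -0.0070 to 0.28 for Srxn1, -0.35 to 0.18 for Txnrd1 and -0.17 to 0.60 for Fth1. Values of Nqo1 and Slc40a1 rest on few fragments.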
